A study of Cricetulus griseus with 40 samples.

Results

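The last day of a CHO-S batch culture was compared with the day before it: the 8 libraries taken at 168 h and 180 h after seeding against the 8 libraries taken at 144 h and 156 h, 16 of the 40 libraries of the series. The libraries were chosen by the sampling time in their titles. That rule used no measured value, although earlier results of these data were known when it was set. CHO-S cells, which descend from Chinese hamster ovary and are grown in suspension, are a common host for producing recombinant proteins. The series measured poly(A) RNA by stranded sequencing of read pairs every 12 h from 72 h to 180 h, with 4 libraries at each of 10 times. All groups held the same untreated cell line, in shake flasks of 400 mL CD CHO medium with 8 mM L-glutamine, anti-clumping agent and penicillin-streptomycin, at 37 °C and 5% CO2, so that time after seeding was the only difference the labels give. Although 4 cultures are stated for the study, no label ties a library to one of them, so p-values reflect how much libraries of the same time differed, and some of that spread may be technical.

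In a batch culture nothing is fed after seeding, so nutrients run down and waste products build up until the cells stop dividing and then die. Cells that leave the cell cycle stop making the messenger RNAs of mitosis, which are switched on in late S phase and G2 phase and include the cyclins, the Polo and Aurora kinases, the spindle motors and the proteins of the kinetochore. Lysosomes are the acidic compartments in which hydrolases break down proteins, lipids and sugars, and in producer cells hydrolases and matrix proteases that reach the medium matter because they can cleave or accompany the product.

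The 16 libraries were close to each other in content and differed in depth. FPKM, fragments scaled for transcript length and library size as deposited, summed to between 485325 and 568855 per library, and between 11255 and 11536 genes reached 1 FPKM. The absolute depth is unknown. Relative depth, read from the steps of the lowest values, lay between 0.820 and 1.01 in the later libraries and between 0.927 and 1.24 in the earlier ones, with overlap and with most earlier libraries deeper than every later one, and its part in the results was not tested. Across genes, the later and earlier libraries correlated with r of 0.957 to 0.989 (median 0.984 over 64 pairs), and libraries of the same time with r of 0.957 to 0.990 (median 0.980 over 24 pairs). A single axis held 52.4% of the variance within times, the next one 4.2%, and on this axis 1 library per time stood apart: replicate 1 of 168 h and replicate 4 of 180 h, against replicate 1 of 144 h and replicate 4 of 156 h. From 84 h to 180 h the lowest library on this axis was replicate 4 and replicate 1 in turn. Whether these libraries share a culture or a step of handling was not tested. Of 12 fibroblast and mesenchymal markers 7 reached 1 FPKM, among them Vim, Pdgfra, Pdgfrb, S100a4 and Acta2, while Thy1 was listed at 0 and Col1a1 and Col1a2 were near 0. Of the ovarian markers 4 of 15 in the files reached 1 FPKM in some library, and of the markers of blood, endothelial, neural and liver cells 2 of 22 did. The summed level of each list overlapped between the groups: fibroblast markers had 8400 to 10330 FPKM in the later libraries and 7472 to 11490 FPKM in the earlier ones. Ovarian markers had 4.88 to 6.47 FPKM in the later and 5.55 to 7.22 FPKM in the earlier ones, and the last list 1.64 to 2.68 FPKM in the later and 0.940 to 2.46 FPKM in the earlier ones.

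At the end of the batch 61 genes rose and 106 fell, out of 12259 tested. The falls were led by genes of mitosis, such as Ccna2, Cenpa, Cdc20 and Tacc3, and the rises by secreted and matrix genes (Mmp12, Spp1, Clu, Postn), the lysosomal protease Ctsb and the receptors Hcar2, Vcam1 and Tnfrsf9. The called share was 1.36% of the genes tested, with 0.498% higher and 0.865% lower. A call is an adjusted p below 0.05 in limma on log2(FPKM + 1), with a mean for each of the 10 times and Benjamini-Hochberg adjustment over all 12259 genes. Without adjustment 1069 genes had a p below 0.05. The changes were small: the size of the log2 change of called genes lay between 0.153 and 0.861, and 0 of them reached 2-fold. The median change of all genes was -0.033 and the median standard error 0.098. In 13 of the 61 and 9 of the 106 the later 8 libraries did not overlap with the earlier 8. Over all tested genes, 18 (0.147%) had all later libraries above all earlier ones and 13 (0.106%) had all of them below. The balance of rises and falls depended on the scaling: with libraries rescaled by median ratios 93 genes rose and 80 fell, so that 53.8% of the calls were higher in place of 36.5%, while the median of all genes moved to -0.008. Without the 4 libraries that stood apart, a comparison added after the data were seen, 34 genes rose and 47 fell, and 78 of these 81 were among the 167. Leaving out replicate 2 of 168 h gave 39 rises and 63 falls. The falls also numbered 63 without replicate 1 of 180 h and 64 without replicate 3 of 156 h. None of the 167 genes changed sign in a setting that fitted it, which their selection at small p-values largely fixes in advance.

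**Figure D1:**
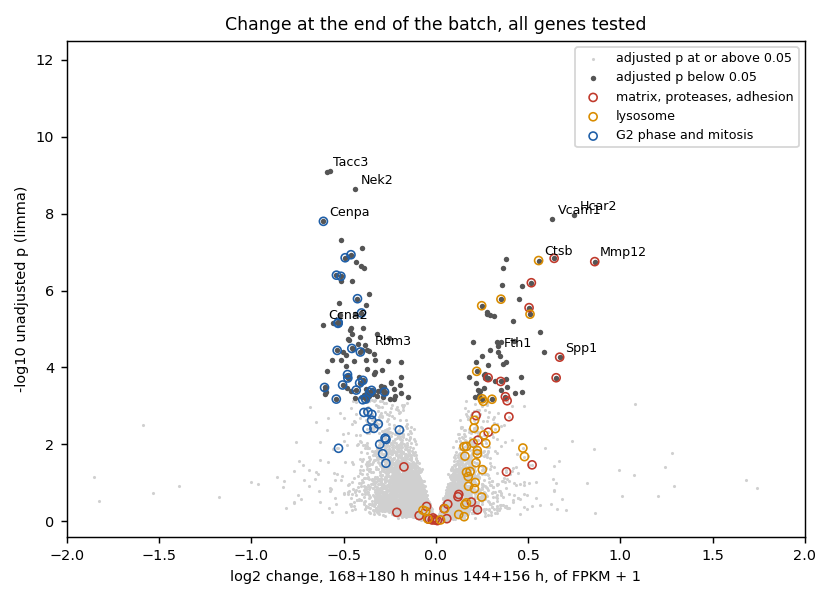
Change of each of 12259 genes (log2 of FPKM + 1, 168+180 h minus 144+156 h, x axis) against the -log10 of its unadjusted limma p (y axis); dark points passed at an adjusted p below 0.05 and rings mark the members of 3 gene lists. The rings of G2 phase and mitosis all lie left of 0 and 24 of the 39 are dark, while 7 lysosomal and 9 matrix members are dark and lie right of 0.

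Genes of G2 phase and mitosis fell at the end of the batch. Of 39 measured members of this list 24 fell, 0 rose and 15 did not pass the test, against 0.865% of all genes falling. The lists used here and below were chosen with earlier results of these data known. Their shares beside those of all genes are a description, and no list was tested as a set. The median change was -0.40, and all 39 members had a value below 0, from -0.61 to -0.20. Their summed level was 495 to 706 FPKM in the later libraries and 665 to 964 FPKM in the earlier ones. In bulk RNA, fewer dividing cells and less of each messenger RNA per dividing cell cannot be told apart. The count of falling members depended on single libraries: it was 12 without replicate 2 of 168 h, 13 without replicate 1 or 2 of 180 h, 14 without replicate 4 of 144 h or replicate 3 or 4 of 156 h, 15 without replicate 3 of 144 h, and 12 without the 4 libraries that stood apart.

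The cyclins that drive entry into mitosis were lower in the later libraries. Ccna2 (NCBI gene 100759649), the cyclin of S phase and G2 phase, had 19.4 to 30.2 FPKM (median 26.1) in the later libraries and 31.2 to 46.4 FPKM (median 41.3) in the earlier ones. The 8 later libraries all lay below the 8 earlier ones, and the change was -0.61 ± 0.12 (log2, SE; adjusted p = 0.00202, limma). Ccnb1 (gene 100770842), the cyclin B1 that activates CDK1, likewise did not overlap, with 15.8 to 23.9 FPKM (median 20.6) in the later libraries and 24.0 to 37.6 FPKM (median 30.3) in the earlier ones (log2 -0.52 ± 0.08, adjusted p = 0.00026). Ccnb2, cyclin B2, changed by -0.49 ± 0.07 (adjusted p = 0.000146) and overlapped in part. Cdk1 itself averaged 81.6 FPKM in the later libraries and 98.7 FPKM in the earlier ones and did not pass the test (log2 -0.27, adjusted p = 0.221). Cdkn3, a phosphatase that acts on CDK1 and CDK2, had 37.8 to 50.5 FPKM (median 44.9) in the later libraries, all below the 50.6 to 79.8 FPKM (median 70.4) of the earlier ones. With Tacc3 it had the smallest adjusted p of the comparison (log2 -0.57 ± 0.07, adjusted p = 4.97e-06).

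Several kinases and motors of the spindle were among the genes that fell. Aurkb, the Aurora kinase of the chromosomal passenger complex, had 3.22 to 6.50 FPKM (median 4.85) in the later libraries and 5.57 to 10.7 FPKM (median 7.17) in the earlier ones (log2 -0.54 ± 0.08, adjusted p = 0.000257), with 5 of the 8 later libraries below all earlier ones. Nek2, a kinase that separates the centrosomes, is not in the mitosis list and was chosen after its values were seen. Its change was -0.44 ± 0.05 (adjusted p = 9.59e-06). Aurka was not past the test (log2 -0.35, adjusted p = 0.106). Plk1, the Polo kinase, changed by -0.54 ± 0.14 and passed narrowly (adjusted p = 0.0495). Its call held in 2 of 16 omissions of a single library, those of replicate 1 of 144 h and replicate 3 of 168 h. It was lost without the 4 libraries that stood apart (0.225). Tacc3 (gene 100765245), which stabilises spindle fibres, is not in the mitosis list either. It had 7.86 to 12.0 FPKM (median 8.93) in the later libraries and 11.4 to 19.8 FPKM (median 14.2) in the earlier ones (log2 -0.59 ± 0.07, adjusted p = 4.97e-06). All 4 libraries of 180 h and 2 of 168 h lay below the earlier ones. The kinesins Kif2c (log2 -0.46, adjusted p = 0.000146), Kif20a (-0.42, 0.00071), Kif23 (-0.36, 0.0385) and Kif22 (-0.28, 0.038) fell, and the calls of Kif23 and Kif22 were lost in 13 and 10 of 16 omissions of a library, up to 0.106 and 0.117. Kif18b had a value of -0.53 with an adjusted p of 0.292.

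Cenpa (gene 100689459), the histone H3 variant that marks centromeres, had 8.68 to 13.4 FPKM (median 9.47) in the later libraries and 12.3 to 20.6 FPKM (median 15.6) in the earlier ones (log2 -0.61 ± 0.08, adjusted p = 3.23e-05). Of the later libraries, 6 of 8 lay below every earlier one. Top2a, the topoisomerase that untangles sister chromosomes, changed by -0.54 ± 0.11 (adjusted p = 0.00628), and Dlgap5, a spindle assembly protein, by -0.53 ± 0.10 (adjusted p = 0.00193). Of the genes of the anaphase-promoting complex, which ends mitosis by degrading cyclin B, the E2 enzyme Ube2c changed by -0.53 ± 0.10 (adjusted p = 0.0019). The activator Cdc20 changed by -0.60 ± 0.15 (adjusted p = 0.0323). This call was lost in 10 of 16 omissions of a library, up to 0.0926, and without the 4 libraries that stood apart (0.168). Mki67, the proliferation marker, averaged 7.59 FPKM in the later libraries and 11.0 FPKM in the earlier ones (log2 -0.51 ± 0.12, adjusted p = 0.029). That call was lost in 7 of 16 omissions, up to 0.0968, and under median-ratio scaling (adjusted p = 0.0604). The microtubule-destabilising Stmn1, chosen after its values were seen, fell by 0.43 on the log2 scale (adjusted p = 0.000146). Prr11, which acts in cell cycle progression, and Ube2t, a ubiquitin-conjugating enzyme of the Fanconi anaemia pathway, each changed by -0.53, with adjusted p-values of 0.000851 and 0.00193.

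**Figure D2:**
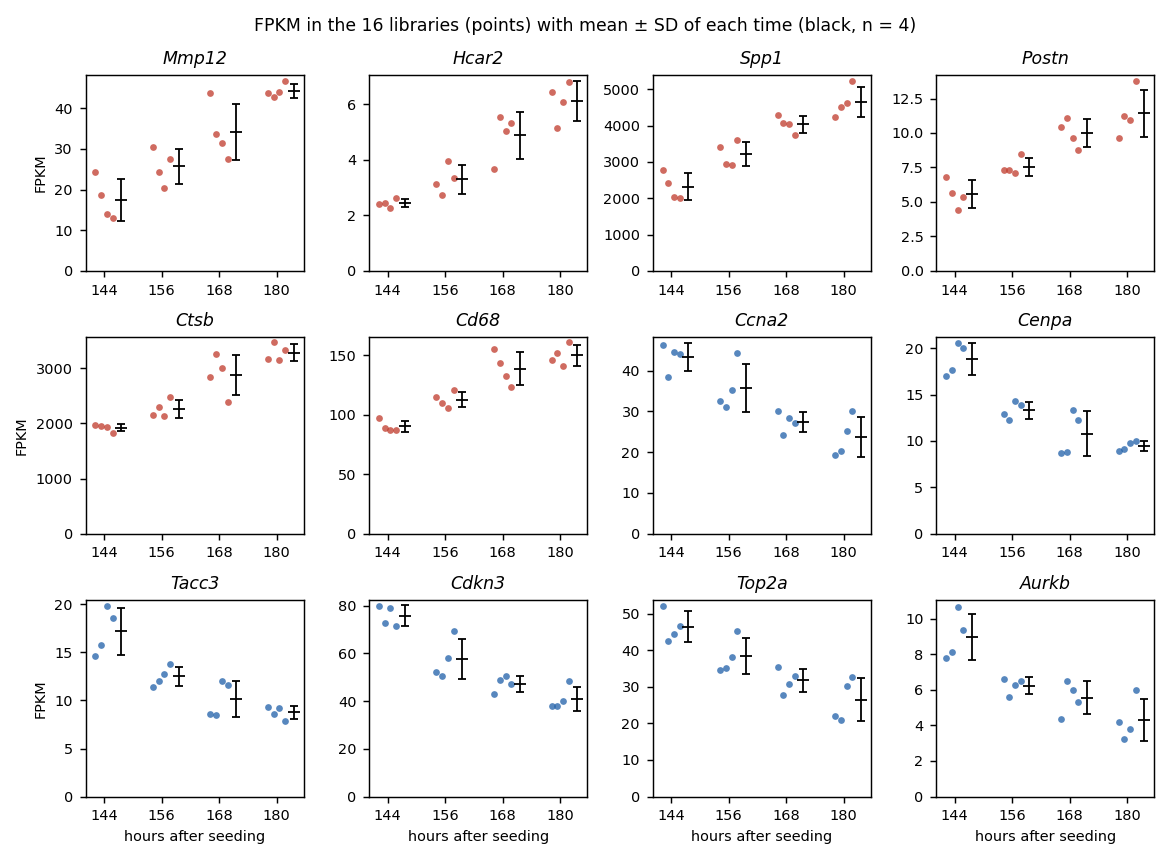
FPKM (y axis, linear from 0) in each of the 16 libraries by hours after seeding (x axis) for 6 genes that rose (red) and 6 that fell (blue), with the mean ± SD of each time in black (n = 4). The time means of all 12 genes move in 1 direction over the 4 times, and in Spp1, Postn, Cd68, Ccna2 and Cdkn3 the libraries of 168 h and 180 h do not overlap with those of 144 h and 156 h.

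Further genes among the 106 that fell lie outside the lists. They were picked after their values were seen, so they give no share of any pathway. The condensin subunits, which compact chromosomes, gave -0.48 for Ncapd2, -0.40 for Ncaph and -0.26 for Ncapg2, with adjusted p-values of 0.00402, 0.00234 and 0.00979. Ncapd2 did not overlap between the later libraries (13.8 to 17.7 FPKM) and the earlier ones (18.3 to 26.1 FPKM). The kinetochore genes Knstrn (log2 -0.52), Zwint (-0.50), Dsn1 (-0.38) and Ska3 (-0.38) fell, as did Hjurp, the chaperone that loads CENP-A (-0.39, adjusted p = 0.00018). Kif15, a spindle kinesin, had 4.27 to 6.27 FPKM in the later libraries, all below the 6.41 to 9.50 FPKM of the earlier ones. The recombination and crosslink repair genes Rad51ap1 (log2 -0.40), Fanci (-0.42), Rad54l (-0.33) and Rtel1 (-0.44) fell too, with adjusted p-values from 0.000175 to 0.0208. Omitting single libraries ended the call of Dsn1 in 11 of 16 cases (up to 0.113), of Fanci in 4, of Rad54l in 2 and of Ska3 in 1. Kinetochore members of the mitosis list had values of -0.31 for Ndc80, -0.34 for Spc25, -0.31 for Cenpe, -0.29 for Cenpf and -0.27 for Nuf2 and did not pass (adjusted p of 0.123, 0.147, 0.261, 0.348 and 0.472).

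Few genes of DNA replication and S phase passed the test. Of 46 measured members 2 fell (Ccna2 and Rrm2), 0 rose and 44 did not pass, against 0.865% of all genes falling; 44 had values below 0, and the median change was -0.19. Rrm2, the small subunit of ribonucleotide reductase, which makes deoxynucleotides, had 19.4 to 29.4 FPKM (median 25.0) in the later libraries and 25.1 to 42.4 FPKM (median 35.2) in the earlier ones (log2 -0.46 ± 0.09, adjusted p = 0.00254). Without replicate 4 of 180 h, 4 members fell. In the list of histones and chromatin proteins, 2 of 9 members fell, and neither is a histone: Lmnb1, the nuclear lamin B1 (log2 -0.38 ± 0.08, adjusted p = 0.00948), and Cbx5, the heterochromatin protein HP1 alpha (-0.32 ± 0.08, adjusted p = 0.0451). The Cbx5 call was lost in 10 of 16 omissions of a library, up to 0.131. Without the 4 libraries that stood apart, Cbx5 had an adjusted p of 0.272 and Lmnb1 one of 0.0521.

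Some genes of the lysosomal list, likewise chosen with earlier results of these data known, rose. Of 39 measured lysosomal hydrolases and membrane proteins 7 rose, among them Ctsb, Cd68, Npc2, Galc, Laptm4a and Hexa, 0 fell and 32 did not pass, against 0.498% of all genes rising. The median change was 0.21, with 36 members above 0 and 3 below, between -0.07 and 0.56. Their summed level was 20830 to 25940 FPKM (median 23960) in the later libraries and 16620 to 20040 FPKM (median 18830) in the earlier ones, without overlap. The count of rising members was 4 without replicate 3 of 156 h, without replicate 2 of 168 h and without the 4 libraries that stood apart, and 11 when only the 16 libraries were fitted.

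Ctsb (gene 100756995), the cysteine protease cathepsin B, had 2395 to 3478 FPKM (median 3159) in the later libraries and 1826 to 2483 FPKM (median 2048) in the earlier ones. All but 1 later library lay above every earlier one, and the change was 0.56 ± 0.08 (log2, SE; adjusted p = 0.000146, limma). Cd68 (gene 100762586), a glycoprotein of lysosomal membranes, did not overlap, with 124 to 161 FPKM (median 145) in the later libraries and 87.6 to 120 FPKM (median 102) in the earlier ones (log2 0.51 ± 0.09, adjusted p = 0.00134). Npc2, which carries cholesterol out of lysosomes, had 1645 to 2110 FPKM (median 1890) in the later libraries and 1332 to 1772 FPKM (median 1461) in the earlier ones (log2 0.35 ± 0.06, adjusted p = 0.00071). Laptm4a, a lysosomal membrane protein, changed by 0.25 ± 0.04 (adjusted p = 0.00095). The glycosidases passed narrowly. Hexa, the alpha subunit of hexosaminidase, changed by 0.22 ± 0.05 (adjusted p = 0.0161) and lost its call without replicate 3 of 156 h (0.0502) or replicate 2 of 168 h (0.0529). Galc, which splits galactosylceramide, changed by 0.25 ± 0.07 (adjusted p = 0.0493). Its call held in 3 of 16 omissions of a library, those of replicate 1 of 144 h, replicate 4 of 156 h and replicate 4 of 168 h. It was lost without the 4 libraries that stood apart (0.172). Among abundant members that did not pass, Ctsa averaged 4856 FPKM in the later libraries and 3481 FPKM in the earlier ones (adjusted p = 0.383), Grn 2036 FPKM in the later and 1466 FPKM in the earlier ones (0.29), and Ctsd 1059 FPKM in the later and 845 FPKM in the earlier ones (0.148).

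Hydrolases and lysosome-associated genes outside the list were also among the 61, named after their values were seen. Rnaset2, a ribonuclease of lysosomes, had 893 to 1187 FPKM (median 1118) in the later libraries and 743 to 964 FPKM (median 846) in the earlier ones (log2 0.36 ± 0.06, adjusted p = 0.000367). Gla, alpha-galactosidase A, changed by 0.35 ± 0.07 (adjusted p = 0.00445). Creg1, a secreted and lysosomal glycoprotein, did not overlap, with 61.4 to 86.2 FPKM in the later libraries and 45.6 to 61.2 FPKM in the earlier ones (log2 0.45 ± 0.08, adjusted p = 0.00071). Gpnmb, a membrane glycoprotein of lysosomes and melanosomes, changed by 0.46 ± 0.11 (adjusted p = 0.0208). It lost its call without replicate 2 of 168 h or replicate 1 of 180 h, up to 0.0623, and without the 4 libraries that stood apart (0.121).

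Some genes of the matrix, protease and adhesion list, also chosen with earlier results of these data known, rose. Of 33 measured members 9 rose (Mmp12, Spp1, Clu, Postn, Serpinf1, Mmp3, Dcn, Itgav and Timp2), 0 fell and 24 did not pass, against 0.498% of all genes rising. The median change was 0.22, with 24 members above 0. Collagens and laminins were among those that did not pass: Col4a1 averaged 311 FPKM in the later libraries and 322 FPKM in the earlier ones, and Lamb1 had a change of -0.01. Without replicate 2 of 168 h the count was 5, and without the 4 libraries that stood apart it was 4.

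Proteases and inhibitors were among the members that rose. Mmp12 (gene 100754279), macrophage metalloelastase, had the highest log2 change of all called genes, 0.86 ± 0.13 (adjusted p = 0.000146). It had 27.6 to 46.5 FPKM (median 43.1) in the later libraries and 13.0 to 30.6 FPKM (median 22.3) in the earlier ones, and 7 of the 8 later libraries lay above every earlier one. Mmp3, stromelysin 1, had 57.2 to 79.0 FPKM (median 72.7) in the later libraries and 39.4 to 60.0 FPKM (median 52.8) in the earlier ones (log2 0.50 ± 0.09, adjusted p = 0.00104). Timp2 (gene 100772625), an inhibitor of these enzymes, did not overlap, with 271 to 298 FPKM (median 292) in the later libraries and 220 to 267 FPKM (median 237) in the earlier ones. Its change was 0.28 ± 0.07 (adjusted p = 0.0209). The call was lost without replicate 2 of 168 h (0.0544) and without the 4 libraries that stood apart (0.121). Mmp10, Mmp14 and Timp1 had values of 0.39, 0.28 and 0.19 and did not pass (adjusted p of 0.0512, 0.17 and 0.988). Serpinf1 (gene 100766774), the secreted serpin PEDF, had 182 to 239 FPKM (median 218) in the later libraries, all above the 128 to 167 FPKM (median 150) of the earlier ones (log2 0.52 ± 0.08, adjusted p = 0.000334). Plat, tissue plasminogen activator, named after its values were seen, also did not overlap, with 25.63 to 32.96 FPKM in the later libraries and 20.09 to 25.56 FPKM in the earlier ones (log2 0.38 ± 0.06, adjusted p = 0.000146).

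Of secreted matrix and matrix-associated proteins, Spp1, Postn, Clu and Dcn rose. Other abundant ones did not pass: Sparc had a value of 0.22 (adjusted p = 0.0889), the proteoglycan biglycan, Bgn, 0.23 (0.228) and fibronectin, Fn1, 0.12 (0.916). Spp1 (gene 100769547), osteopontin, was the most abundant of the rising matrix genes, with 3743 to 5243 FPKM (median 4267) in the later libraries and 2019 to 3595 FPKM (median 2853) in the earlier ones. All 8 later libraries lay above the earlier ones (log2 0.67 ± 0.14, adjusted p = 0.00828), and without the 4 libraries that stood apart the change was 0.70 with an adjusted p of 0.0502. Postn (gene 100770667), periostin, had 8.80 to 13.8 FPKM (median 10.7) in the later libraries and 4.41 to 8.49 FPKM (median 6.96) in the earlier ones, again without overlap (log2 0.64 ± 0.10, adjusted p = 0.000146). Clu, clusterin, a chaperone outside the cell, changed by 0.65 ± 0.15 (adjusted p = 0.0209). Its call was lost without replicate 3 of 156 h, replicate 2 of 168 h or replicate 1 or 2 of 180 h, up to 0.0604. It was also lost without the 4 libraries that stood apart (0.107). Dcn, the proteoglycan decorin, was low, with 2.51 to 5.48 FPKM in the later libraries and 1.74 to 3.89 FPKM in the earlier ones (log2 0.38 ± 0.10, adjusted p = 0.0451). Its call was lost in 12 of 16 omissions, up to 0.138, and without the 4 libraries that stood apart (0.108). The integrin subunit Itgav changed by 0.35 ± 0.08 (adjusted p = 0.0246) and lost its call in 8 of 16 omissions, up to 0.0823.

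The receptors Hcar2, Vcam1 and Tnfrsf9, all at a few FPKM, were among the rises named for their size. Hcar2 (gene 100765472), a G protein-coupled receptor for hydroxybutyrate and nicotinic acid, had 3.66 to 6.80 FPKM (median 5.43) in the later libraries and 2.27 to 3.96 FPKM (median 2.68) in the earlier ones (log2 0.75 ± 0.10, adjusted p = 3.23e-05). Vcam1 (gene 100761508), an adhesion receptor, had 4.06 to 6.87 FPKM (median 5.72) in the later libraries and 2.61 to 4.20 FPKM (median 3.09) in the earlier ones (log2 0.63 ± 0.08, adjusted p = 3.23e-05). In both genes 7 of the 8 later libraries lay above every earlier one. Tnfrsf9, the costimulatory receptor 4-1BB, did not overlap, with 3.13 to 4.64 FPKM in the later libraries and 1.91 to 3.00 FPKM in the earlier ones (log2 0.56 ± 0.11, adjusted p = 0.0029). With a pseudocount of 0.1 in place of 1, Hcar2 had a change of 0.92 (adjusted p = 0.0703) and Tnfrsf9 one of 0.73 (adjusted p = 0.059), so that both calls were lost. Nrp2, a more abundant neuropilin receptor named after its values were seen, had 78.7 to 101 FPKM in the later libraries and 53.5 to 77.3 FPKM in the earlier ones, without overlap (log2 0.42, adjusted p = 0.00427; 0.0546 without the 4 libraries that stood apart).

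Iron, antigen presentation and secretory genes gave single rises. Fth1 (gene 100689102), the ferritin heavy chain that stores iron, had 27700 to 33970 FPKM (median 30480) in the later libraries and 21360 to 28780 FPKM (median 24340) in the earlier ones (log2 0.34 ± 0.07, adjusted p = 0.00662). It made up 5.78% ± 0.50 of all FPKM in the later libraries and 4.58% ± 0.46 in the earlier ones (SD, n = 8 each). How reads shared between Fth1 and its processed copies were assigned is not given in the sources used here. It was the only called member of the lists of iron genes (15 measured) and NRF2 targets (24 measured). B2m, the light chain of MHC class I, rose by 0.31 ± 0.06 (adjusted p = 0.00137), with 1682 to 2056 FPKM in the later libraries and 1276 to 1748 FPKM in the earlier ones, and was the only one of 22 interferon and antigen presentation genes to pass. Ccn2, a matricellular protein, rose by 0.36 ± 0.06 (adjusted p = 0.00018), the only one of 23 immediate early genes to pass. Qsox1, a secreted sulfhydryl oxidase, rose by 0.47 ± 0.08 (adjusted p = 0.00037). Of genes named after their values were seen, Xdh, xanthine dehydrogenase, had 125 to 149 FPKM in the later libraries and 93.1 to 124 FPKM in the earlier ones, without overlap (log2 0.42, adjusted p = 0.00185), and the complement protease C1s rose by 0.38 ± 0.08 (adjusted p = 0.0101).

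Among metabolic and RNA-binding genes there were a few single falls. Rbm3 (gene 100689372), an RNA-binding protein known for its induction by cold, had 41.4 to 56.4 FPKM (median 50.2) in the later libraries and 54.8 to 72.1 FPKM (median 66.2) in the earlier ones (log2 -0.36 ± 0.08, adjusted p = 0.00628; 0.114 without the 4 libraries that stood apart). It was the only one of 38 splicing factors to pass, although all 38 had values below 0, with a median of -0.12. Acss2, which makes acetyl-CoA from acetate, changed by -0.29 ± 0.07 (adjusted p = 0.0148; 0.052 without replicate 1 of 180 h). Amt, of the glycine cleavage system, changed by -0.34 ± 0.09 (adjusted p = 0.04). It lost its call in 11 of 16 omissions, up to 0.124, and without the 4 libraries that stood apart (0.135).

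Most other lists had no member past the test. Of 40 lists with measured members 24 had no call in limma among 581 distinct genes, of which 55 had an unadjusted p below 0.05, with medians between -0.19 and 0.07. With array weights, which downweight the libraries that stood apart, 29 of the 581 rose and 33 fell. They include genes for and against apoptosis, p53 targets, ATF4 targets, endoplasmic reticulum chaperones, heat shock genes, hypoxia genes, glycolysis, the tricarboxylic acid cycle, the respiratory chain, cholesterol synthesis, autophagy, the proteasome and the Golgi N-glycan enzymes. Of 71 ribosomal protein genes 0 passed in limma, 9 had an unadjusted p below 0.05 and 9 fell with array weights. All 71 values were below 0, with a median of -0.19, and reads shared with processed copies could not be told apart. The list of 30 host cell proteins known to be carried over into products had 2 rises, Ctsb and Clu, and a median of 0.13. Of single genes, Gapdh averaged a change of -0.15 (95% interval -0.79 to 0.49), Actb -0.10 (-0.51 to 0.30), Hspa5, the chaperone BiP, 0.17 (0.03 to 0.31), Ddit3, the stress factor CHOP, 0.16 (-0.12 to 0.44), Asns, asparagine synthetase, 0.01 (-0.10 to 0.12) and Glul, glutamine synthetase, 0.06 (-0.06 to 0.19). None of these 6 passed. Neither did Cdkn1a, the CDK inhibitor p21 (-0.10, -0.51 to 0.31), Myc (-0.15, -0.85 to 0.54) or Txnip (0.01, -0.22 to 0.24). Gapdh and Myc had wide intervals, and they differed between libraries of the same time by 0.56 and 0.60 on the log2 scale for each SD along the axis that set single libraries apart. Altogether 51 of the 167 called genes lay in a list and 116 in none.

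**Figure D3:**
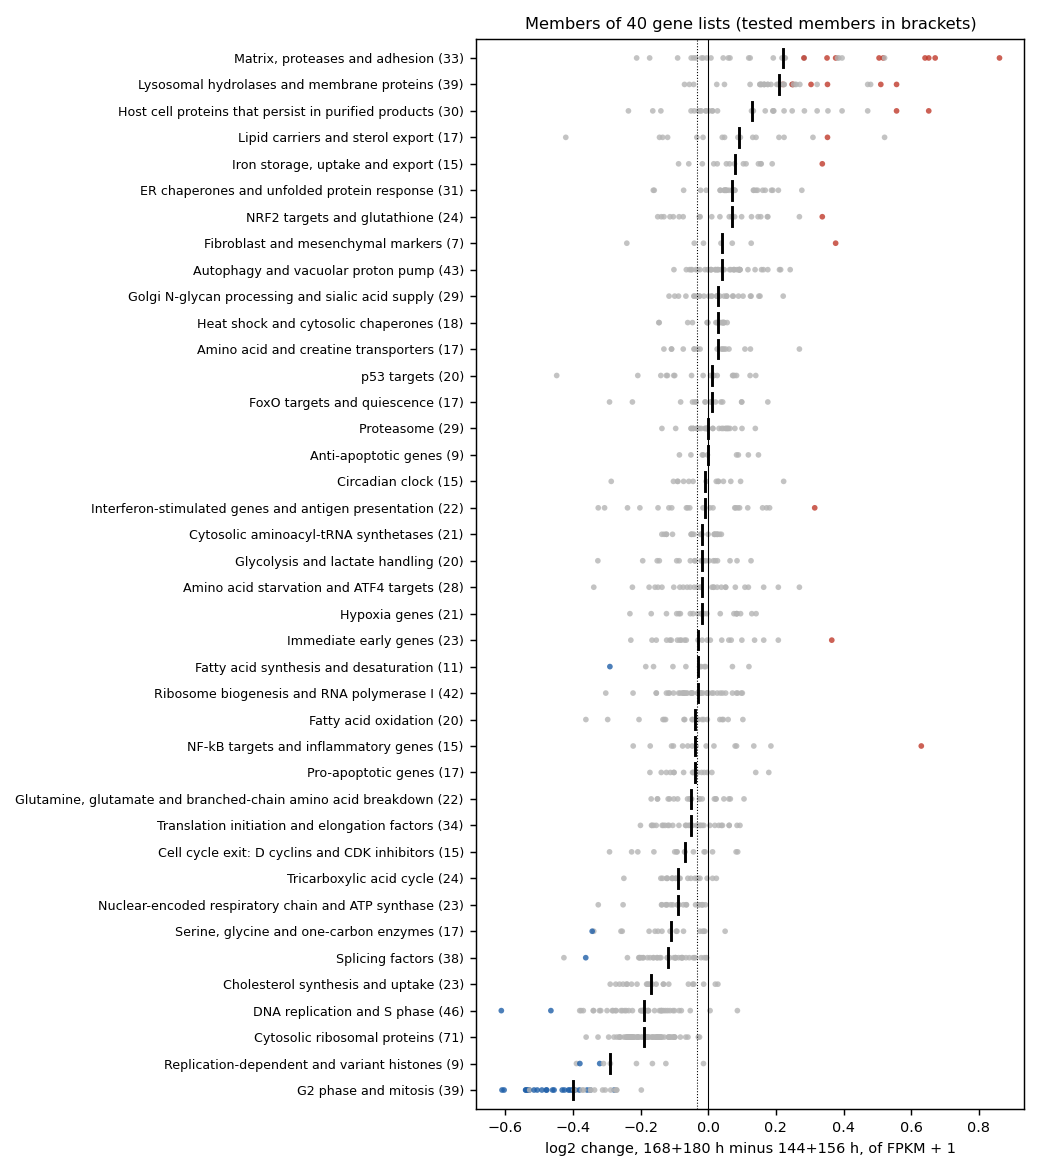
Log2 change (168+180 h minus 144+156 h, of FPKM + 1) of every measured member of 40 gene lists, 1 point per gene, red where it rose and blue where it fell at an adjusted p below 0.05, grey otherwise; black bars are list medians and the dotted line the median of all genes, -0.033. G2 phase and mitosis sits lowest with a median of -0.40 and the matrix list highest with 0.22, followed by the lysosome with 0.21.

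The single steps of 12 h gave almost no calls without library weights. At 168 h against 156 h limma called 0 genes (0%), with 289 at an unadjusted p below 0.05, and at 156 h against 144 h it called 0 (0%), with 205. A step rests on 4 libraries against 4, and its median standard error was 0.138, against 0.098 for the pairs of times. At 180 h against 168 h limma called 1 gene (0.00816%), with 180 at an unadjusted p below 0.05. With array weights the counts were higher and unequal: 145 genes rose and 198 fell at 168 h against 156 h, 2 fell at 180 h against 168 h, and 5 rose and 35 fell at 156 h against 144 h. The gene called without weights at 180 h against 168 h, Egr1 (gene 100755852), an immediate early transcription factor, averaged 4.47 ± 0.66 FPKM at 180 h and 10.6 ± 1.4 FPKM at 168 h (SD, n = 4 each), with all 4 libraries of 180 h (3.87 to 5.42 FPKM) below those of 168 h (8.92 to 12.2 FPKM). Its change was -1.09 ± 0.18 (adjusted p = 0.0128), and the call was lost in 6 of 8 omissions of a library, up to 0.14, and without the 4 libraries that stood apart (0.265). Egr1 had averaged 6.70 FPKM at 156 h and 10.4 FPKM at 144 h, so the later and earlier pairs overlapped and did not differ past the test (log2 -0.23, adjusted p = 0.709).

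The called genes were selected for levels at 168 h and 180 h beyond those of 144 h and 156 h, which largely fixes where their extremes lie, so the following is a description. Of the 61 rising genes 57 had their highest mean of all 10 times at 180 h and 4 at 168 h, and of the 106 falling genes 86 had their lowest mean at 180 h, 19 at 168 h and 1 at another time. The median change of the rising genes was 0.19 at 156 h against 144 h, 0.19 at 168 h against 156 h and 0.09 at 180 h against 168 h. That of the falling genes was -0.21, -0.23 and -0.14 over the same steps. From 144 h to 180 h, in steps of 12 h, Hcar2 averaged 2.43, 3.30, 4.89 and 6.12 FPKM, and Cdkn3 75.7, 57.7, 47.2 and 41.0 FPKM. The median changes of the rising and the falling genes were 0.35 and -0.41 at the end, and 0.38 and -0.50 in the 24 h before (144+156 h against 120+132 h, which shares the libraries of 144 h and 156 h). The difference between the 2 changes passed for 0 genes (0%) in limma, with 281 at an unadjusted p below 0.05, and for 81 higher and 44 lower genes with array weights.

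**Figure D4:**
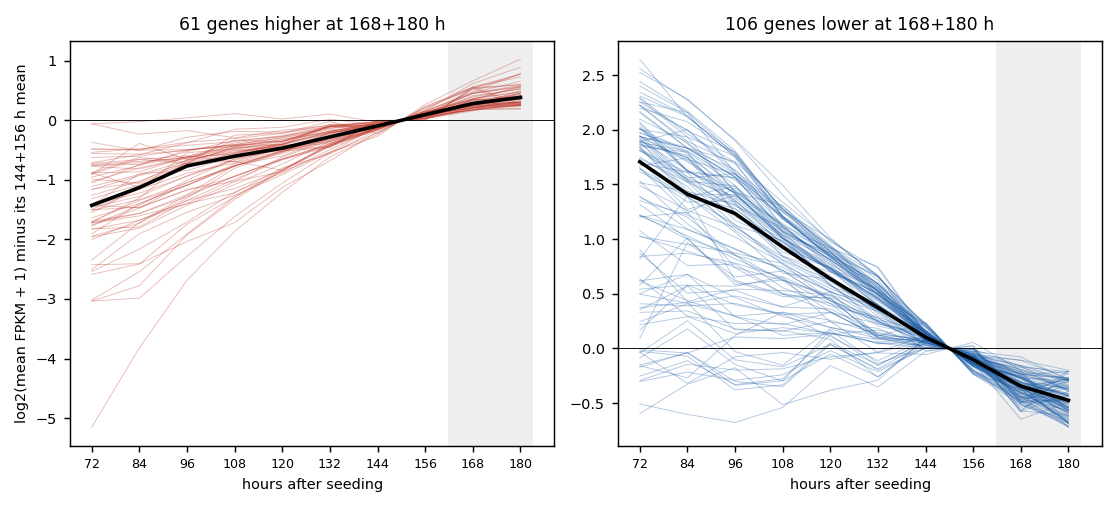
Level of the 61 genes that rose (left) and the 106 that fell (right) at each of the 10 times, as log2 of the mean FPKM + 1 minus the gene's mean of the 144 h and 156 h values (y axis) against hours after seeding (x axis); thin lines are genes, the thick line is their median, and the times 168 h and 180 h are shaded. The median of the left panel rises and that of the right panel falls at every step from 72 h to 180 h.

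A few falling genes had positive changes in the 24 h before, between 0.04 and 0.25, none of which passed the test. They were named after their values were seen. The libraries of 144 h and 156 h enter both changes with opposite sign, so such a contrast is partly built into the choice. In the main limma fit no gene's change at the end differed past the test from its change in the 24 h before. A later start of these falls is therefore not shown. Slc9a5, a sodium-proton exchanger, averaged 8.76, 10.3, 9.40, 6.24 and 7.24 FPKM at the 5 times from 132 h to 180 h (168+180 h against 144+156 h, log2 -0.48, adjusted p = 0.0196). Hoxb6, a homeobox factor, Ccnl2, a cyclin that acts with splicing factors, Gnb3, a G protein subunit, and Kat14, an acetyltransferase subunit, had the same order of means, lower at 168 h than at 180 h and lower at both than at 144 h and 156 h. Their changes were -0.40, -0.38, -0.44 and -0.32, with adjusted p-values of 0.0246, 0.0343, 0.0473 and 0.0372. These calls were lost in 6 to 11 of 16 omissions of a library, up to 0.149. All were also lost without the 4 libraries that stood apart, from 0.0658 for Slc9a5 to 0.317 for Kat14. Phka2, a phosphorylase kinase subunit with a change of -0.09 in the 24 h before, had 4.47 to 6.29 FPKM in the later libraries and 6.34 to 7.96 FPKM in the earlier ones, without overlap (log2 -0.34, adjusted p = 0.00738).

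The genes called at the end were set beside the change of the first sampled day, 96+108 h against 72+84 h, which uses none of the same libraries. That early comparison called 1192 genes higher (9.72%) and 1820 lower (14.8%). Of the 61 genes that rose at the end 51 had also risen early (83.6% of the end's rises and 4.28% of the early ones), and of the 106 that fell 80 had also fallen early (75.5% and 4.40%). None of the 61 had fallen early, and 3 of the 106 had risen early. Mitosis genes fell in both: 24 of 39 at the end and 33 of 39 early, with medians of -0.40 at the end and -0.56 early, and the difference between the changes passed for 0 of the 39 in limma, with 9 at an unadjusted p below 0.05 (13 higher and 8 lower with array weights). In the S phase list 2 of 46 fell at the end and 31 early, and for 8 of the 46 the change at the end was above the early one past the test.

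The change at the end differed from the early change in 506 genes (4.13%), 263 with a higher value at the end (2.15%) and 243 with a lower one (1.98%). Without replicate 1 of 96 h the counts were 1012 and 1100, without replicate 1 of 84 h 422 and 449, without replicate 4 of 156 h 398 higher, and without others of the compared libraries as few as 145 and 179. Of the 61 rising genes 16 differed, 14 of them with the smaller change at the end. Spp1 had a change of 0.67 at the end and 2.21 early (difference -1.53, adjusted p = 2.32e-05), Serpinf1 one of 0.52 at the end and 1.29 early (-0.78, adjusted p = 0.000186), Cd68 one of 0.51 at the end and 1.21 early (-0.70, adjusted p = 0.00154) and Fth1 one of 0.34 at the end and 0.74 early (-0.40, adjusted p = 0.0179). Ccn2 had the larger change at the end, with 0.36 at the end and 0.05 early (0.32, adjusted p = 0.0175). Of the 106 falling genes 11 differed, 6 with the smaller change at the end.

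Of the genes named for the largest differences in either direction, Spp1 was called at the end and the others described here were not. Gem, a small GTPase, had a change of 0.05 at the end and 1.57 early (difference -1.51 ± 0.12, adjusted p = 1.18e-09), Il33, a cytokine of the interleukin-1 family, -0.17 at the end and 1.49 early (-1.66 ± 0.16, adjusted p = 5.07e-08), and Nppb, natriuretic peptide B, 0.04 at the end and 1.99 early (-1.95 ± 0.44, adjusted p = 0.00911). At 72, 108, 144 and 180 h, Gem averaged 7.24, 48.8, 63.4 and 66.7 FPKM. CUNH20orf202, an uncharacterised gene at about 2 FPKM, had -0.31 at the end and 1.22 early (adjusted p = 0.0172). In the other direction, the glutathione synthesis subunit Gclm had 0.07 at the end and -0.63 early (0.70 ± 0.12, adjusted p = 0.000405), the cystine transporter Slc7a11 0.27 at the end and -0.41 early (0.67 ± 0.10, adjusted p = 0.000187), and Pole, the leading-strand DNA polymerase, -0.18 at the end and -0.77 early (0.58 ± 0.09, adjusted p = 0.000173). Ranbp3l and CUNH7orf31 had differences of 0.65 and 0.62, with changes near 0 at the end. Slc7a11 had 17.7 to 24.5 FPKM in the later libraries and 12.6 to 20.6 FPKM in the earlier ones and missed the test at the end (adjusted p = 0.0552).

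The 3 genes that fell at the end after an early rise were Ttc39a, Acp6 and Uaca, named for this. The end calls of Ttc39a and Uaca were lost in 6 and 5 of 16 omissions of a library (up to 0.0782 and 0.0713), those of Ttc39a and Acp6 without the 4 libraries that stood apart (0.121 and 0.0771), and that of Uaca under median-ratio scaling (0.0948). Ttc39a, a protein with tetratricopeptide repeats, averaged 8.33, 12.1, 9.96 and 7.51 FPKM at 72, 108, 144 and 180 h (-0.24 at the end and 0.44 early, difference -0.68, adjusted p = 4.91e-06). Acp6, a lysophosphatidic acid phosphatase, averaged 11.7, 16.9, 11.2 and 7.22 FPKM at the same times (difference -0.65, adjusted p = 0.00127). Uaca, a regulator of apoptosis, had the smallest of the 3 changes (-0.19 at the end and 0.12 early, difference -0.31, adjusted p = 0.00311). Rbm3 had a value of 0.16 early (adjusted p = 0.117), peaked at 127 ± 14 FPKM at 84 h and stood at 50.9 ± 2.4 FPKM at 180 h (SD, n = 4 each), and its change at the end was lower than the early one (difference -0.52, adjusted p = 0.00361).

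**Figure D5:**
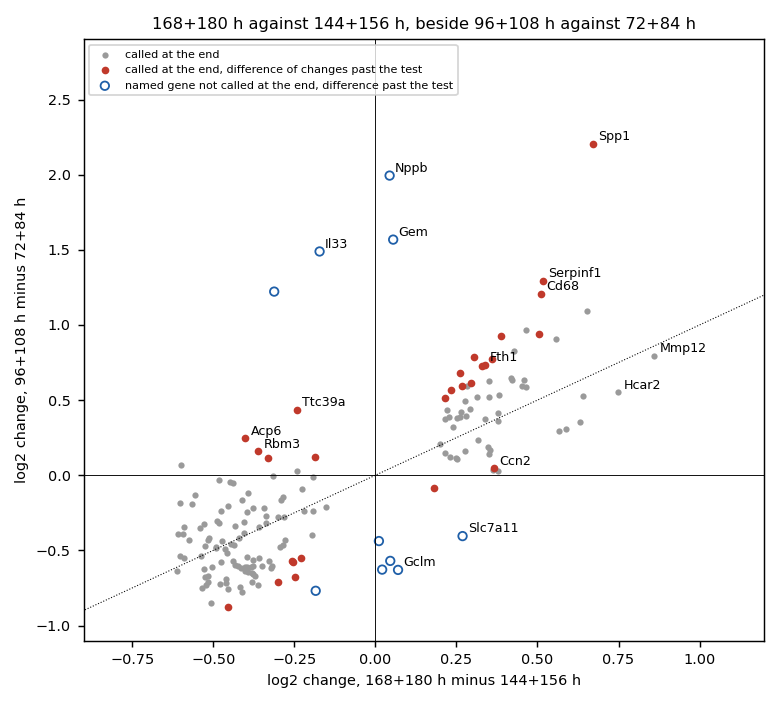
Log2 change at the end (168+180 h minus 144+156 h, x axis) and early (96+108 h minus 72+84 h, y axis) of the 167 genes called at the end, red where the difference of the changes passed at an adjusted p below 0.05, with named genes that passed only that difference as open circles; the dotted line marks equal changes. Spp1 at 0.67 and 2.21 lies far above the line, and Ttc39a and Acp6 lie in the upper left, with a rise early and a fall at the end.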

How the data were processed

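RNA libraries of CHO-S cells were made with a stranded poly(A) kit and sequenced as pairs of 126 bases, per the labels' protocols. The authors deposited 1 table of FPKM per library. The submitters' processing notes name Cufflinks 2.2.1, SAMtools 1.0, Trimmomatic 0.32 and FastQC. The aligner, genome build, annotation and strand setting were not given in the sources used here. Of 27868 lines per file, 23 carried no gene ID and held 0. FPKM of the 634 IDs on several lines were summed, and the 364 of these that were tested are less certain. Of 26793 IDs, 23196 matched a gene table of assembly CriGri-PICRH-1.0 (names only), and 15217 had a symbol.

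The 12259 genes that reached 1 FPKM in 4 or more of 40 libraries entered limma 3.58.1 (R 4.3.3) on the log2(FPKM + 1) scale (30 residual degrees of freedom, trended and robust variances, Benjamini-Hochberg). The log scale understates changes of low genes. At the filter, 104 genes passed in exactly 4 libraries and 128 missed in exactly 3. Intervals are 95%. The fit was tested on simulated data. Named genes are the 12 largest rises and falls whose later time means lie beyond both earlier ones, up to 2 called members per list and direction, the 5 largest of each other comparison and 12 names chosen by hand. All other names were chosen after their values were seen. Libraries, lists and rules were chosen with earlier results of these data known.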

Additional observations from a re-analysis of the deposited data

Results flagged for a closer look

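In 14 of 316 groups of 4 libraries (79 named genes at 4 times) 1 library stood outside the others by Dixon's criterion, which chance does in about 1 of 20 groups. Replicate 4 of 156 h was the high one in 5 of the 14: 8.49 FPKM for Postn (others up to 7.33), 213 FPKM for Qsox1 (up to 174), 1772 FPKM for Npc2 (up to 1516), 189 FPKM for Hexa (up to 165) and 115 FPKM for C1s (up to 90.0). Replicate 4 of 180 h was high in 3, with 33970 FPKM for Fth1 (others up to 30490), 29.1 FPKM for Ccn2 (up to 24.6) and 1.54 FPKM for Cdkn1a (up to 1.22). Replicate 1 of 168 h was high for Prr11 (9.29 FPKM, others up to 8.05) and low for Myc (3.15 FPKM, others from 6.88). Replicate 2 of 144 h was high for Tnfrsf9 (3.00 FPKM, others up to 2.03) and low for Laptm4a (166 FPKM, others from 177). Replicate 1 of 144 h was high for Cd68 (96.9 FPKM, others up to 89.1), and replicate 4 of 168 h was low for Gla (125 FPKM, others from 147). All of these but the libraries of Tnfrsf9, Laptm4a and Gla are among the 4 that stood apart.

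The change at the end differed from the early change, by the test of the difference, in 263 genes with a higher and 243 with a lower value at the end. Among named genes that rose at the end the difference was -1.53 for Spp1, -0.78 for Serpinf1, -0.70 for Cd68, -0.44 for Mmp3 (call lost in 17 of 32 omissions of a library, up to 0.0755), -0.40 for Fth1, -0.41 for Rnaset2 and 0.32 for Ccn2. Among those that fell it was -0.52 for Rbm3, -0.68 for Ttc39a, -0.65 for Acp6 and -0.31 for Uaca. Among genes not called at the end it was 0.70 for Gclm, 0.67 for Slc7a11, 0.65 for Ranbp3l, 0.62 for CUNH7orf31, 0.58 for Pole and 0.45 for Asns. On the other side it was -1.95 for Nppb, -1.66 for Il33, -1.53 for CUNH20orf202 and -1.51 for Gem.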

How the results depend on the processing

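Counts depended on the processing. Of the 167 calls none changed sign in the fits that held them, and 12 were not fitted with a filter of 5 FPKM. They had been selected at an unadjusted limma p of at most 0.000675, which largely fixes their signs in advance. Of the 167, 93 kept their call in all 16 omissions of a library. Without the 4 libraries that stood apart, which lowers the number of libraries, 78 kept it. The cause of the lost calls was not tested. Of the 506 differences from the early change 302 kept theirs in all 32 omissions. Rises and falls numbered 55 and 132 with a pseudocount of 0.1, 57 and 79 without a filter, 60 and 112 with a filter of 5 FPKM, 93 and 80 with median-ratio scaling, 59 and 110 without trended or robust variances, 74 and 110 when only the 4 times were fitted, 68 and 76 as 2 groups of 8, 34 and 47 without the 4 libraries, and 477 and 806 with array weights. Array weights, which count libraries near their time's mean for more, also gave 145 and 198 at 168 h against 156 h, 2 falls at 180 h against 168 h, 5 and 35 at 156 h against 144 h, 81 and 44 for the end minus the 24 h before, and 3253 and 3759 for the end minus the early change. They called 39 falling mitosis members, 24 of S phase, and 27 lysosomal and 16 matrix rises. At 168 h against 156 h 1 gene rose with only the compared times and 1 without the 4 libraries; at 180 h against 168 h the count was 0 in both; at 156 h against 144 h 1 gene fell without the 4 libraries. Lysosomal rises numbered 11 with 2 groups of 8. Omitting 1 library at a time gave 39 to 72 rises and 63 to 121 falls at the end, 0 to 1 rises and 0 to 1 falls at 168 h against 156 h, 0 to 1 falls at 180 h against 168 h and at 156 h against 144 h, 0 to 1 falls for the end minus the 24 h before, and 145 to 1012 higher and 179 to 1100 lower for the end minus the early change. Of the last, 1012 and 1100 came without replicate 1 of 96 h, 422 and 449 without replicate 1 of 84 h, 398 higher without replicate 4 of 156 h, and the other omissions that moved the higher count by over 1.5 times gave 145 to 173. Mitosis falls ranged from 12 to 24, lysosomal rises from 4 to 9 and matrix rises from 5 to 10. Uncalled genes near 0 changed sign when a library was omitted: Ranbp3l ranged from -0.015 to 0.075, Nppb from -0.062 to 0.168, Asns from -0.006 to 0.032 and Txnip from -0.034 to 0.051. Over all pairs of times, equal replicate numbers did not pair the libraries (24 pairs of times and numbers, correlations of deviations -0.65 to 0.60, 7 above 0.1). At times 24 h apart, numbers 1 to 4 gave 0.57, -0.08, 0.21 and 0.22 (144 h, 168 h). For 156 h and 180 h they gave 0.35, 0.16, -0.04 and 0.60. Between 144 h and 156 h, equal numbers 1 and 4 gave -0.38 and -0.48. There, replicate 1 with replicate 4 gave 0.62, and replicate 4 with replicate 1 gave 0.21. Pairing by a rule other than equal numbers was not tested. The 4 libraries that stood apart correlated with each other at 0.509 to 0.645, also where their numbers differed. Libraries of different times may therefore be related, and the main fit took them as independent. With a replicate block, which groups equal numbers, 66 genes rose and 116 fell, 163 of the 167 calls among them. Since equal numbers need not mark the same culture, this block cannot show how grouping by culture would act. FPKM give no absolute depth, so no counting error can be stated.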
